A study of Mus musculus with 21 samples.

Results

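Ccl3, Ccl4, Ccl5 and Xcl1 are the chemokine ligand genes that activated T cells are best known to transcribe. These 4 genes were taken by symbol from the 51201 genes of the CD4 and CD8 count tables, and all 4 were found in both tables and passed the filter on low counts in every comparison. Each was followed through all 21 libraries.

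Chemokines are small secreted proteins that guide the movement of leukocytes through receptors coupled to G proteins. CCL3 and CCL4 are the macrophage inflammatory proteins and CCL5 is also called RANTES. CCL3 and CCL5 bind CCR1, a receptor found on monocytes and macrophages. XCL1, or lymphotactin, binds XCR1, a receptor of cross-presenting dendritic cells, and T cells release it with CCL3, CCL4 and CCL5 after antigen recognition. Memory and effector CD8 T cells hold Ccl5 transcripts before stimulation, while Ccl3, Ccl4 and Xcl1 are induced quickly through the T cell receptor.

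The study asked what lasting gp130 signalling does to the transcripts of splenic T cells. gp130 transduces the signal of interleukin-6 and related cytokines. L-gp130 mice (L-gp130fl/+;CD4Cre+/-) carry a constitutively active gp130 allele switched on by Cre from the Cd4 promoter, which is used in thymocytes before the CD4 and CD8 lineages part. Controls (CD4Cre+/-) carry the same Cre without the allele. All mice were C57BL/6J at postnatal day 35. There were 6 L-gp130 CD4, 6 control CD4, 3 L-gp130 CD8 and 6 control CD8 libraries of spleen cells, each from a mouse number of its own within the group. CD4 cells were bound to CD4-directed beads and kept, whereas CD8 cells were what remained after other cells had been removed, so cell type and way of selection cannot be told apart. These are bulk libraries, in which more cells that make a transcript and more transcript per cell cannot be told apart.

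Gene counts summed to between 27855757 and 35869208 a library in CD4 controls and to between 17781085 and 21226510 in CD4 cells of L-gp130 mice, so the CD4 controls were all the deeper. CD8 libraries held between 17719183 and 19286396 counts in controls and between 17217364 and 19476881 in L-gp130 mice. By label 1 of 6 CD4 controls, 4 of 6 L-gp130 CD4, 4 of 6 control CD8 and 2 of 3 L-gp130 CD8 libraries were from males, and 1 of the 21 libraries did not match its labelled sex by Xist and Ddx3y. That library was a CD4 control, in the group with 1 labelled male, and its label was kept. Socs3, a direct target of gp130 signalling, was at 264 to 432 CPM (counts-per-million) in L-gp130 CD4 libraries and 116 to 140 CPM in control CD4 libraries, and at 444 to 514 CPM against 115 to 171 CPM in CD8 libraries. The summed Cd8a and Cd8b1 level was 1338 to 2367 CPM over all CD8 libraries and 29.2 to 128 CPM over all CD4 libraries, and Cd4 was at 531 to 799 CPM in CD4 libraries and 3.33 to 20.4 CPM in CD8 libraries. Some libraries stood apart. L-gp130 CD4 replicate 1 lay at 56.9 on the second principal component of the CD4 libraries, with the others at -36.8 to 22.4. Control CD8 replicates 1 to 3 lay at -27.9 to -23.4 and control CD8 replicates 4 to 6 at 6.86 to 31.3 on that of the CD8 libraries. On the first component of the CD8 libraries, which parted the genotypes, these sets lay at -15.6 to -10.7 and at -40.0 to -29.3. The L-gp130 CD8 libraries lay there at 38.2 to 54.2, so control replicates 1 to 3 were the nearer to them. Each of these sets of 3 controls held 2 males and 1 female by label.

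The 4 genes belong to different structural classes of chemokine, which shows in their coding sequence. Stretches of 30 bases from the second of 3 exons of Ccl4, Ccl5 and Xcl1 are printed here 5′ to 3′ on the coding strand, with cysteine codons in capitals, because the cysteines near the start of the mature protein define the class. They come from GENCODE mouse release 21 transcripts (GRCm38).
Ccl4: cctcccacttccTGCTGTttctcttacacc
Ccl5: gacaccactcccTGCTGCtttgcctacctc
Xcl1: gaagagagtagcTGTgtgaacttacaaacc

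The Ccl4 stretch lies at chr11:83663470-83663499 (codons 30 to 39 of 92, plus strand). The Ccl5 stretch lies at chr11:83529230-83529259 (codons 29 to 38 of 91, minus strand) and that of Xcl1 at chr1:164932960-164932989 (codons 28 to 37 of 114, minus strand). Ccl4 and Ccl5 have a pair of adjacent cysteine codons there, as members of the CC family do, while Xcl1 has 1, as a member of the C family. Ccl3 is also a CC chemokine. The longest run of bases shared exactly by any 2 of the 4 transcripts was 13, far below the 150 bp read length. Ccl3 (ENSMUSG00000000982, chr11:83647844-83649355) and Ccl4 (ENSMUSG00000018930, chr11:83662584-83664683) are neighbours on opposite strands with 13228 bases between them. Ccl5 (ENSMUSG00000035042, chr11:83525778-83530518) lies in the same chemokine cluster, and Xcl1 (ENSMUSG00000026573, chr1:164931644-164935527) on another chromosome. Xcl1 alone overlaps another annotated gene: 98 of its exon bases are shared with Gm20743 on the opposite strand, and unstranded reads from those bases cannot be assigned to either. Salmon gave Gm20743 2 to 20 reads a library in CD4 cells and 31 to 174 in CD8 cells, so the Xcl1 level in CD8 cells is uncertain by reads of that size.

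Per unit of length, Ccl5 was the most abundant of the 4 transcripts in every group. Its level in TPM, which scales reads by transcript length, averaged 194 in control CD4, 429 in L-gp130 CD4, 1443 in control CD8 and 3077 in L-gp130 CD8 libraries, which was 92.7%, 94.0%, 90.5% and 93.9% of the summed TPM of the 4 genes. Xcl1 averaged 12.8, 9.69, 57.4 and 68.4 TPM in the same order. Ccl4 averaged 1.60, 14.5, 53.5 and 83.2 TPM, and Ccl3 averaged 0.696, 5.39, 41.7 and 39.5 TPM. In control CD4 cells Xcl1 thus stood above Ccl4 and Ccl3, whereas in L-gp130 CD4 cells mean Ccl4 stood above mean Xcl1.

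**Figure D1:**
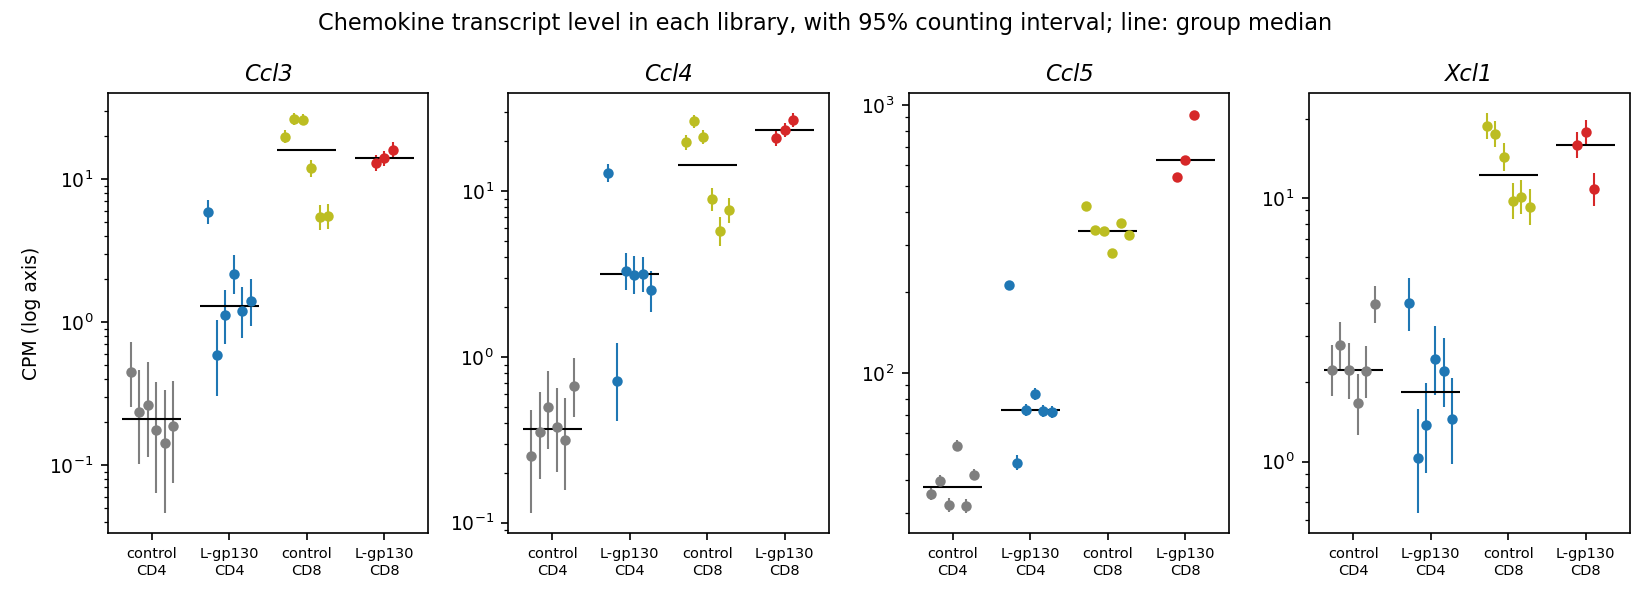
CPM of each chemokine gene in each of the 21 libraries (reads summed per gene, log axis), 1 point a library in replicate order, with its 95% Poisson interval for counting error only and a line at the group median. The points of Ccl3 and Ccl4 in L-gp130 CD4 libraries lie wholly above those of control CD4 libraries, though the intervals of the nearest libraries overlap. Ccl5 of L-gp130 CD8 libraries lies wholly above control CD8 libraries.

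In CD4 cells, Ccl3 and Ccl4 rose in L-gp130 mice from levels close to nothing in controls, by 5.18-fold and 5.98-fold after adjustment for labelled sex. Ccl5 and Xcl1 did not pass the test, at 1.91 and 0.645 times the control level after the same adjustment. Mean CPM without adjustment went from 0.253 to 2.10 for Ccl3, 0.434 to 4.36 for Ccl4, 40.3 to 95.8 for Ccl5 and 2.62 to 2.14 for Xcl1. By the test 2 of the 4 chemokine genes rose and 0 fell, where over all 15016 genes tested in CD4 cells 11.1% rose and 7.75% fell.

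Ccl3 in CD4 cells had a lowest, median and highest level of 0.149, 0.223 and 0.455 CPM in controls and of 0.587, 1.35 and 6.01 CPM in L-gp130 libraries. All 6 L-gp130 libraries lay above all 6 controls. The log2 fold change was 2.37 ± 0.52 (SE, 95% interval 1.25 to 3.50), with an adjusted p of 0.00759 in edgeR's quasi-likelihood test. The control value rested on 5 to 16 reads a library and the L-gp130 value on 12 to 110. Among controls the variance was 1.75 times what counting alone gives, and among L-gp130 libraries 36 times. The groups' nearest libraries were not separated beyond counting error: 12 reads in L-gp130 replicate 2 gave a 95% Poisson interval of 0.305 to 1.03 CPM, and 16 reads in control replicate 1 gave 0.255 to 0.725 CPM.

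Ccl4 in CD4 cells followed the same layout, at 0.254, 0.383 and 0.710 CPM (lowest, median, highest) in controls and 0.716, 3.15 and 13.2 CPM in L-gp130 libraries. The groups touched without overlapping, since L-gp130 replicate 2 lay just above the highest control. These nearest libraries were not separated beyond counting error. The 95% Poisson interval was 0.413 to 1.22 CPM in L-gp130 replicate 2 (15 reads) and 0.434 to 0.989 CPM in control replicate 6 (25 reads). The other 5 L-gp130 libraries were at 2.61 CPM or more. The log2 fold change was 2.58 ± 0.70 (SE, 95% interval 1.06 to 4.10; adjusted p 0.0228, edgeR), on 9 to 25 reads a control library and 15 to 240 reads an L-gp130 library. The call for Ccl4 was lost without L-gp130 replicate 6 (2.43, adjusted p 0.179) and without control replicate 1 (1.81, adjusted p 0.103), and that for Ccl3 was lost without L-gp130 replicate 6 (adjusted p 0.0774). Control replicate 1 was the only CD4 control labelled male. Without it the sex term rested on the L-gp130 libraries alone.

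Ccl5 in CD4 cells was at 33.3, 38.5 and 53.8 CPM in controls and at 48.1, 75.0 and 217 CPM in L-gp130 libraries. L-gp130 replicate 2 fell within the control range and the other 5 lay above it. The log2 fold change of 0.94 ± 0.38 (SE, 95% interval 0.10 to 1.77) did not pass the test (adjusted p 0.111, edgeR), but it did so without L-gp130 replicate 1, at a smaller 0.76 (adjusted p 0.0120), and without the sex term, at 1.25 (adjusted p 0.0127).

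Xcl1 in CD4 cells was at 1.64, 2.35 and 4.23 CPM in controls and at 1.05, 1.88 and 4.13 CPM in L-gp130 libraries. These ranges overlapped, with 3 L-gp130 libraries below all controls. The log2 fold change was -0.63 ± 0.41 (SE, 95% interval -1.51 to 0.25; adjusted p 0.299, edgeR).

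L-gp130 CD4 replicate 1 held the group's highest level of all 4 genes, and other transcripts moved with it. Its Cd8a level was 93.7 CPM against 15.1 to 29.6 CPM in the other L-gp130 libraries. Its Cd4 level was lowest, at 531 CPM against 733 to 799 CPM, and its 4 T cell markers summed to 1352 CPM against 1623 to 2007 CPM. Its 7 B cell markers summed to 530 CPM against 202 to 460 CPM, and its 7 dendritic cell markers to 200 CPM against 83.9 to 143 CPM. Its plasma cell, erythroid and platelet sums lay inside the range of the others. Its Ifng level was 99.1 CPM against 4.48 to 8.06 CPM. Its summed level of 10 monocyte-macrophage markers was 2012 CPM against 458 to 821 CPM, its 7 neutrophil markers summed to 242 CPM against 30.4 to 228 CPM, its 5 gamma-delta T cell markers to 69.3 CPM against 21.7 to 30.5 CPM, and its 7 NK cell markers to 28.5 CPM against 24.6 to 37.0 CPM. Without that library the log2 fold change was 2.08 for Ccl3 (adjusted p 0.00142) and 2.34 for Ccl4 (adjusted p 0.00311), so both calls were kept.

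Levels of other cells' markers were compared between the CD4 groups. Cd8a and Cd8b1 summed to 29.2 to 36.8 CPM in control CD4 and 35.8 to 128 CPM in L-gp130 CD4 libraries, with 5 of the 6 L-gp130 libraries above all controls. Of these 2 genes 0 passed edgeR's test. Cd8a, at a log2 fold change of 1.30 ± 0.46 (SE; adjusted p 0.0700), had an unadjusted p under 0.05 and passed in DESeq2, and Cd8b1 was at -0.03 ± 0.15 (adjusted p 0.915). Among markers of other cells, 3 of 7 B cell genes (Ms4a1, Cd79b and Fcer2a), 2 of 7 NK cell genes (Klra4 and Klra9), Cd163 of 10 monocyte-macrophage genes and Siglech of 7 dendritic cell genes fell in L-gp130 CD4 cells, and Jchain of 3 plasma cell genes rose. No defining marker of CD8 T cells, NK cells, gamma-delta T cells or monocytes was at 0 in any group. The part of other cells in the chemokine levels was not tested.

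**Figure D2:**
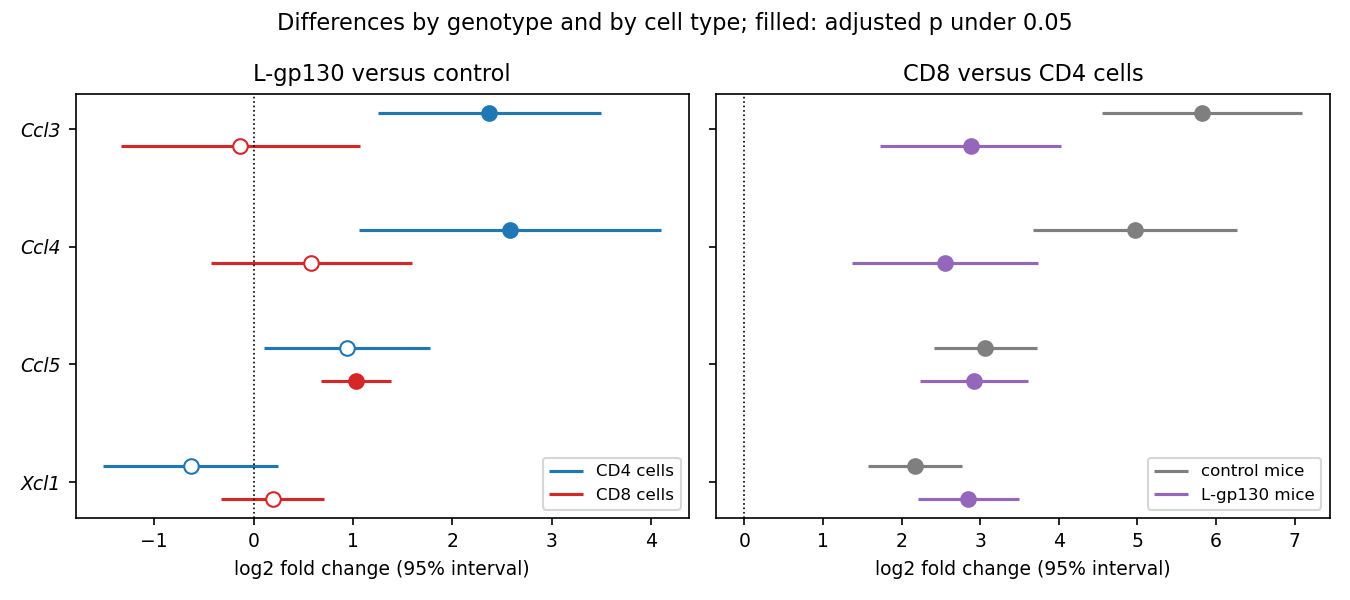
Log2 fold change of each chemokine gene with its 95% interval, for L-gp130 over control (left, CD4 and CD8 cells) and for CD8 over CD4 cells (right, control and L-gp130 mice), with filled points at an adjusted p under 0.05. On the left only Ccl3 and Ccl4 in CD4 cells and Ccl5 in CD8 cells are filled, and on the right all 8 points are filled and lie above 0.

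In CD8 cells Ccl5 rose 2.04-fold in L-gp130 mice, again after adjustment for labelled sex. Ccl3, Ccl4 and Xcl1, at 0.911, 1.496 and 1.14 times the control level, did not pass the test. Of the 4 chemokine genes 1 rose and 0 fell, where 10.5% of the 14254 genes tested in CD8 cells rose and 10.5% fell.

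Ccl5 in control CD8 libraries was at 267, 315 and 404 CPM (lowest, median, highest), and in the 3 L-gp130 libraries at 531, 601 and 894 CPM. The groups did not overlap. The log2 fold change was 1.03 ± 0.16 (SE, 95% interval 0.68 to 1.38; adjusted p 0.00209, edgeR), and it passed the test whichever single library was left out (0.77 to 1.17). Ccl5 was also the member best covered by reads, with 4692 to 7333 in control and 10239 to 15317 in L-gp130 CD8 libraries.

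Ccl3 in control CD8 libraries ranged from 5.28 to 24.8 CPM with a median of 15.4 CPM, and the L-gp130 libraries, at 12.6, 13.4 and 15.4 CPM, all lay inside that range. Its log2 fold change was -0.13 ± 0.53 (SE, 95% interval -1.34 to 1.07; adjusted p 0.885, edgeR). Ccl4 ranged from 5.74 to 25.6 CPM in controls with a median of 13.6 CPM, and was at 19.0, 21.3 and 24.8 CPM in L-gp130 libraries, each of which lay above 4 or more of the controls. Its log2 fold change was 0.58 ± 0.45 (SE, 95% interval -0.43 to 1.59; adjusted p 0.391, edgeR). Xcl1 ranged from 8.95 to 18.2 CPM in controls with a median of 11.4 CPM, against 15.6, 17.3 and 10.6 CPM in L-gp130 libraries, again inside the control range. Its log2 fold change was 0.19 ± 0.23 (SE, 95% interval -0.32 to 0.71; adjusted p 0.601, edgeR).

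The wide spread of Ccl3, Ccl4 and Xcl1 among CD8 controls followed the split of the controls described above. In control replicates 1 to 3, Ccl3 was at 19.2 to 24.8 CPM, against 5.28 to 11.6 CPM in replicates 4 to 6. Ccl4 was at 18.2 to 25.6 CPM against 5.74 to 9.09 CPM, and Xcl1 at 13.2 to 18.2 CPM against 8.95 to 9.59 CPM. Ccl5 was at 311 to 404 CPM against 267 to 344 CPM, with overlap. So 3 of the 4 genes lay wholly higher in replicates 1 to 3, as did 10.7% of all genes tested in CD8 cells. This split was seen in the data, and no label names it. The deposited library numbers skip a number between these sets, as they also skip numbers between the L-gp130 CD8 libraries and the controls. The labels do not say why.

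The immediate early gene Nr4a1, which T cell receptor signalling induces, was at 224 to 294 CPM in control replicates 1 to 3, at 45.3 to 84.0 CPM in replicates 4 to 6 and at 284 to 319 CPM in L-gp130 CD8 libraries. Ifng, which encodes interferon gamma, was at 23.2 to 24.4 CPM, 4.93 to 7.69 CPM and 22.6 to 33.1 CPM. Of 19 T cell activation genes, 10 lay wholly higher in replicates 1 to 3 than in replicates 4 to 6, and none wholly lower. Summed markers of other cells were wholly higher in replicates 1 to 3 for NK cells (142 to 162 CPM against 97.6 to 125 CPM), gamma-delta T cells (45.8 to 47.2 against 28.0 to 36.5), B cells (62.4 to 80.2 against 31.0 to 34.3), plasma cells (76.5 to 88.7 against 19.0 to 35.3) and neutrophils (33.9 to 57.0 against 5.67 to 30.8). Cd4 was at 11.7 to 20.4 CPM against 3.33 to 4.41 CPM, and the Cd8a and Cd8b1 sum was wholly lower, at 1781 to 2071 CPM against 2153 to 2367 CPM. The sums overlapped for monocytes and macrophages (341 to 685 against 395 to 737), dendritic cells, basophils and mast cells, red cells and platelets. Their part in the chemokine levels was not tested.

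The genotype difference was also computed with each set of controls alone, a check chosen after the data were seen. Since Ccl3, Ccl4 and Xcl1 lie wholly lower in replicates 4 to 6, the choice of set fixes which way their values move, and the values are descriptions. Against control replicates 4 to 6 alone, the log2 fold change was 0.91 for Ccl3, 1.53 for Ccl4 and 0.62 for Xcl1. Against control replicates 1 to 3 alone, it was -0.72 for Ccl3, 0.02 for Ccl4 and -0.14 for Xcl1. Ccl5, whose control sets overlapped, was at 1.09 (adjusted p 0.00393) and 0.95 (adjusted p 0.0334).

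**Figure D3:**
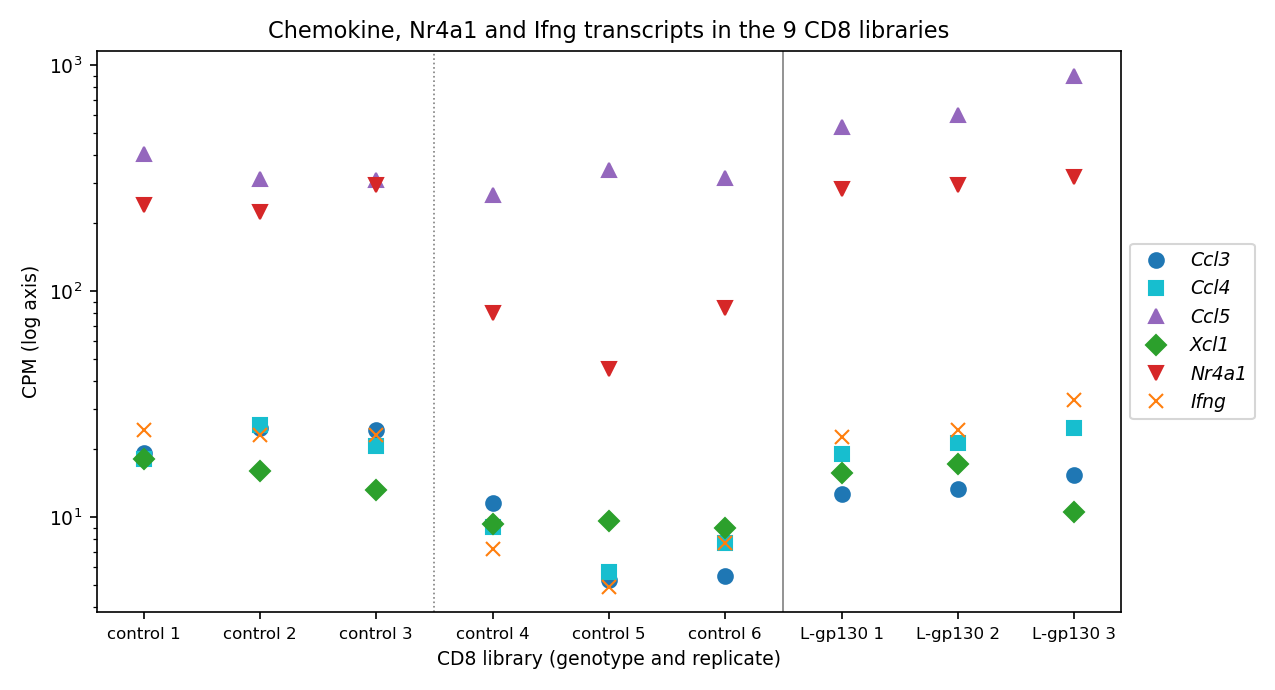
CPM (log axis) of the chemokine genes, Nr4a1 and Ifng in each of the 9 CD8 libraries, 1 symbol a gene, with a dotted line between control replicates 3 and 4. Ccl3, Ccl4, Nr4a1 and Ifng are all higher in controls 1 to 3 than in controls 4 to 6, and Ccl5 is not.

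**Figure D4:**
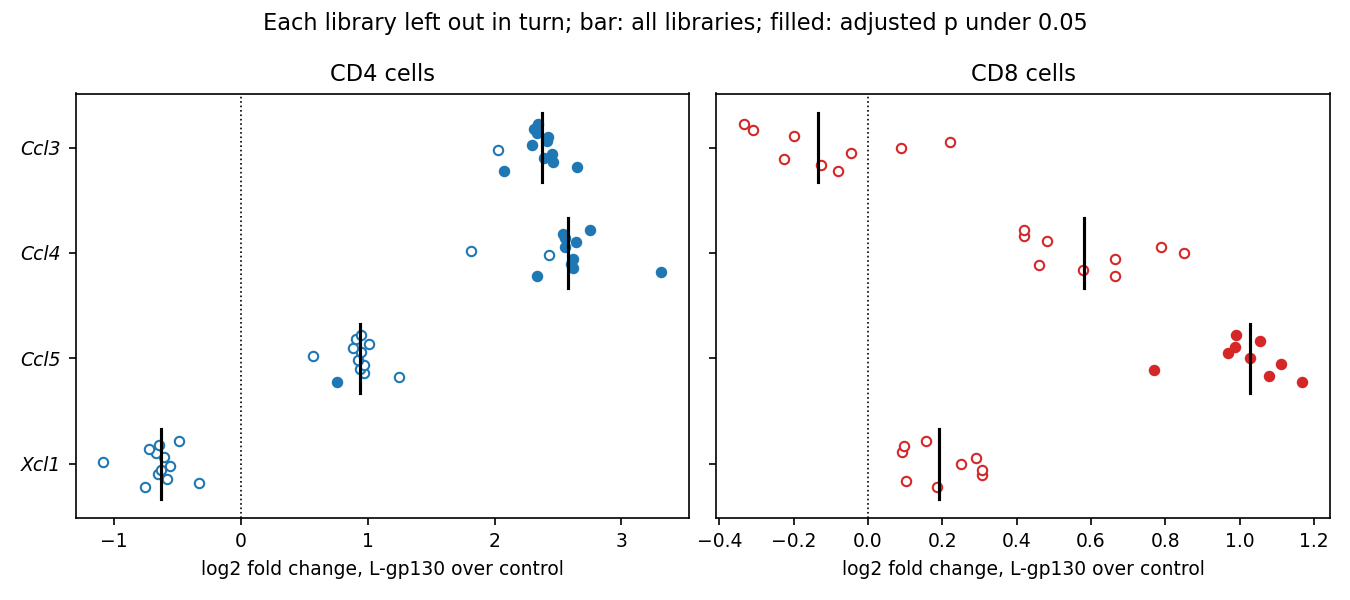
Log2 fold change of L-gp130 over control for each gene when each library is left out in turn (points, filled at an adjusted p under 0.05), with a bar at the value over all libraries. Filled points hold for Ccl3 in 11 of 12 and Ccl4 in 10 of 12 refits in CD4 cells, and for Ccl5 in 9 of 9 in CD8 cells.

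Whether the genotype effect differed between the cell types was tested directly, in 1 fit over all 21 libraries. The effect in CD8 cells minus that in CD4 cells, on the log2 scale, was -2.94 ± 0.86 for Ccl3 (SE, 95% interval -4.74 to -1.15; adjusted p 0.0660, edgeR). For Ccl4 it was -2.42 ± 0.88 (adjusted p 0.151), for Ccl5 -0.15 ± 0.47 (adjusted p 0.912) and for Xcl1 0.67 ± 0.43 (adjusted p 0.442). Of the 4 genes 0 passed edgeR's test, against 3.45% of all 15750 genes in that fit; 2 of the 4, Ccl3 and Ccl4, had an unadjusted p under 0.05, and 1, Ccl3, passed DESeq2's test (-2.90, adjusted p 0.0155). The effects in CD4 and CD8 cells are therefore not shown to differ at this threshold.

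All 4 transcripts were higher in CD8 than in CD4 cells, in both genotypes. In controls the log2 difference was 5.82 ± 0.60 for Ccl3 (SE; adjusted p 2.49e-07), 4.97 ± 0.62 for Ccl4 (adjusted p 2.43e-06), 3.07 ± 0.31 for Ccl5 (adjusted p 2.73e-07) and 2.18 ± 0.29 for Xcl1 (adjusted p 2.71e-06). No control CD8 library overlapped a control CD4 library for any of them. The share of all genes without such overlap was not counted, so this is a description only. Of all genes tested, 27.2% were called higher and 24.3% lower in control CD8 cells. In L-gp130 mice the log2 difference was 2.88 ± 0.55 for Ccl3 (adjusted p 0.000307), 2.55 ± 0.56 for Ccl4 (adjusted p 0.00118), 2.92 ± 0.33 for Ccl5 (adjusted p 1.31e-06) and 2.85 ± 0.31 for Xcl1 (adjusted p 3.59e-07), where 22.9% of all genes were called higher. For Ccl3 that is 56.7-fold in controls and 7.37-fold in L-gp130 mice. Markers of other cells differed between the cell types too. In control CD8 cells 7 of 7 NK cell markers (median log2 difference 3.33; sums of 97.6 to 162 CPM against 30.4 to 42.3 CPM in control CD4 libraries), 6 of 6 basophil and mast cell markers (median 4.88) and 3 of 5 gamma-delta T cell markers (median 0.90) were called higher. Called lower were 7 of 7 B cell (median -3.98), 7 of 7 dendritic cell (-2.20), 7 of 10 monocyte-macrophage (-1.56) and 5 of 6 erythroid markers (-5.45), the last with sums of 3305 to 27321 CPM over all CD4 and 34.1 to 470 CPM over all CD8 libraries. Their part in the chemokine differences was not tested.

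The order of the 4 groups was not the same for the 4 genes. It was read from mean CPM over all libraries, and neighbours were compared on log2(CPM + 0.5) with exact 2-sided permutation tests, adjusted over 12 pairs. Ccl3 ran from control CD4 (0.242 CPM) through L-gp130 CD4 (2.07 CPM) and L-gp130 CD8 (14.4 CPM) to control CD8 (15.9 CPM), and the last step did not pass (exact permutation adjusted p 0.869). Ccl4 ran from control CD4 (0.411 CPM) through L-gp130 CD4 (4.29 CPM) and control CD8 (14.9 CPM) to L-gp130 CD8 (23.7 CPM), and the last step did not pass (exact permutation adjusted p 0.238). Ccl5 was the gene for which every step passed: 39.1 CPM in control CD4, 93.5 CPM in L-gp130 CD4 (exact permutation adjusted p 0.0104), 345 CPM in control CD8 (0.00649) and 693 CPM in L-gp130 CD8 (0.0179). That test has no sex term, and the CD4 step of Ccl5 did not pass edgeR's test with it, as given above. Xcl1 ran from L-gp130 CD4 (2.08 CPM) and control CD4 (2.51 CPM), which did not differ beyond their spread (exact permutation adjusted p 0.371), to control CD8 (13.3 CPM) and L-gp130 CD8 (14.9 CPM), which did not either (0.623). With 6 against 3 libraries the smallest p an exact test can give is 0.0119 before adjustment, and with 6 against 6 it is 0.00216.

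Across the 6 control CD8 libraries Pearson's r of log2 CPM was 0.96 for the neighbouring genes Ccl3 and Ccl4. It was 0.85 for Ccl3 and 0.91 for Ccl4 with Xcl1, which lies on another chromosome, and 0.17 for Ccl3 and 0.31 for Ccl4 with Ccl5. Across the 6 L-gp130 CD4 libraries the pairs of the 4 genes had r of 0.90 to 0.98, with the high replicate 1 among them. Across control CD4 libraries, with at most 25 reads of either gene, Ccl3 and Ccl4 had r of -0.40. These points share library depth and the split described above, and the values are descriptions. The ratio of Ccl4 to Ccl3 in TPM was 2.02, 2.13 and 2.16 in L-gp130 CD8 libraries and 1.05 to 1.87 in control CD8 libraries, without overlap and in both sets of controls. In CD4 cells it was 1.59 to 3.88 in L-gp130 and 0.728 to 4.65 in control libraries, with overlap.

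For each chemokine gene, the 3 other genes most alike in level over the 21 libraries were ranked by Pearson's r among 11175 genes, with r after subtraction of group means beside it. For Ccl5 they were Heatr9 (0.99, 0.84 within groups), Cd7 (0.98, 0.90) and Nkg7 (0.98, 0.86). Heatr9 is the nearest gene to Ccl5 on the chromosome, 3602 bases away, Cd7 encodes a surface protein of T and NK cells, and Nkg7 a cytotoxic granule protein. For Ccl4 they were Pdgfb (0.96, 0.79), a growth factor gene, Rgs1 (0.96, 0.86), a regulator of G protein signalling, and Atf4 (0.96, 0.85), a stress-response transcription factor. For Ccl3 they were Cdk9 (0.97, 0.69), Pdcd5 (0.96, 0.69) and Fkbp8 (0.96, 0.79), and for Xcl1 Sema4a (0.97, 0.70), Samd3 (0.96, 0.63) and Snhg6 (0.96, 0.66). The 21 libraries fall into cell types, which sets much of each r.

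Among the receptors of these ligands, Ccr3, an eotaxin receptor that CCL5 also binds, fell in both cell types. In CD4 cells Ccr3 was at 9.30 to 35.1 CPM in controls and 3.81 to 17.5 CPM in L-gp130 libraries, a log2 fold change of -1.55 ± 0.40 (SE; adjusted p 0.0203) that was lost in 3 of 24 refits. In CD8 cells Ccr3 was at 3.37 to 10.6 CPM in controls and 0.339 to 1.26 CPM in L-gp130 libraries, a log2 fold change of -3.12 ± 0.44 (adjusted p 0.00117). Ccr1 and Xcr1 did not pass in either cell type. Ccr1 had a log2 fold change of 0.56 in CD4 cells (adjusted p 0.445) and 0.87 in CD8 cells (adjusted p 0.134). Xcr1 stood at 0.39 in CD4 cells (adjusted p 0.757) and -0.01 in CD8 cells (adjusted p 0.984). Over all genes tested the median log2 fold change was -0.01 in either cell type.

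Of 33 other chemokine ligand genes, 15 were tested in CD4 cells, where 1 rose and 1 fell, with a median log2 fold change of 0.41. Ccl22, a ligand of CCR4, rose from 0.759 to 1.66 CPM in controls to 1.31 to 3.59 CPM (log2 1.14 ± 0.36; adjusted p 0.0430), a call lost in 11 of 24 refits. Cxcl12, the ligand of CXCR4 and a product of stromal cells, fell from 9.51 to 18.8 CPM to 3.59 to 6.92 CPM (log2 -1.70 ± 0.24; adjusted p 0.000450). In CD8 cells 11 were tested and 0 passed edgeR's test, with 1 (Ccl22) at an unadjusted p under 0.05 and 0 called by DESeq2; their median log2 fold change was 0.32.

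Other chemokine receptors moved in both directions. In CD4 cells 5 of 19 rose and 3 fell, led by Ccr9, a gut-homing receptor, at -1.19 ± 0.17 (SE of the log2 fold change; adjusted p 0.000391), Cxcr5, a receptor for entry into follicles, at 1.25 ± 0.18 (adjusted p 0.000591) and Ccr4 at 0.70 ± 0.12 (adjusted p 0.00159). In CD8 cells 3 of 13 rose and 4 fell, led by the skin-homing receptor Ccr10 at 3.02 ± 0.30 (adjusted p 0.000176), Ccr9 at -1.66 ± 0.16 (adjusted p 0.000213) and the lymph node homing receptor Ccr7 at -0.67 ± 0.10 (adjusted p 0.00127). The median log2 fold change of the list was 0.04 in CD4 and 0.16 in CD8 cells. Ccr9 and Cxcr5 share exon bases with other annotated genes, whose reads could be split between them.

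Genes of T cell activation were described alongside, and their link to Ccl3, Ccl4 and Xcl1 was not tested. In CD4 cells 10 of 18 rose and 2 fell, with a median log2 fold change of 0.64, and the summed level was 821 to 1012 CPM in L-gp130 against 569 to 668 CPM in control libraries. They were led by the early transcription factor Egr2 at 1.43 ± 0.08 (adjusted p 1.91e-07), Crtam, a surface receptor of activated T cells, at 1.81 ± 0.18 (adjusted p 2.75e-05) and Tnfrsf4, the costimulatory receptor OX40, at 1.09 ± 0.15 (adjusted p 0.000311). Fasl and Cd40lg were the members that fell. In CD8 cells 4 of 17 rose and 0 fell, with a median of 0.41, led by Egr3 at 0.58 ± 0.09 (adjusted p 0.00184), Il2ra, the interleukin-2 receptor alpha chain, at 1.33 ± 0.26 (adjusted p 0.00549) and Crtam at 0.35 ± 0.08 (adjusted p 0.0133; lost in 2 of 20 refits). Of 16 transcription factors of effector T cells, 3 rose in CD4 cells (Nfatc1, Nfatc2, lost in 2 of 24 refits, and Irf4, lost in 4 of 24; list median 0.14) and 5 in CD8 cells, among them Id2 at 0.78 ± 0.13 (adjusted p 0.00223), Tbx21, the gene of T-bet, at 0.55 ± 0.12 (adjusted p 0.0115; lost in 2 of 20 refits) and Irf4 at 0.77 ± 0.18 (adjusted p 0.0144; lost in 3 of 20), with a list median of 0.21.

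Effector genes of CD8 T cells rose more often than they fell in both cell types. In CD4 cells 8 of 18 rose and 1, Klrd1, fell, with a median log2 fold change of 0.45. Cst7, which encodes an inhibitor of granule cathepsins, was at 2.39 ± 0.11 (SE; adjusted p 3.99e-08). The gene of the cytotoxic protease granzyme B, Gzmb, went from 4.59 to 6.81 CPM in controls to 121 to 470 CPM (log2 4.67 ± 0.36; adjusted p 1.48e-05), and Itgal stood at 0.63 ± 0.08 (adjusted p 0.000232). In CD8 cells 6 of 18 rose and 1, Ly6c2, fell, with a median of 0.16. Gzmb went from 20.5 to 35.9 CPM to 275 to 521 CPM (log2 3.72 ± 0.21; adjusted p 1.42e-05) and the NK receptor gene Klrc1 stood at 1.09 ± 0.10 (adjusted p 7.18e-05). In CD8 cells, with Ccl5 higher, 3 of 7 NK cell markers fell (median -0.62) and 6 of 10 monocyte-macrophage markers fell (median -1.25), as did both Cd8a and Cd8b1, and Tcrg-C1 and Tcrg-C2 of 5 gamma-delta T cell markers rose. Itgax of 7 dendritic cell markers (list median -0.01) and Klf1 of 6 erythroid markers (list median -1.12) rose too. The dendritic cell markers summed to 59.5 to 113 CPM in L-gp130 and 40.4 to 54.1 CPM in control CD8 libraries. Their part in the Ccl5 difference was not tested.

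The 250 bases before the start sites of Ccl3 and Xcl1 are shown, from RefSeq (GRCm38.p6), 5′ to 3′ on each gene's strand. Capitals mark matches to GGAAA, the core bound by NFAT factors downstream of the T cell receptor, and to TCACACC, a core bound by T-box factors such as T-bet, each searched on both strands. Only these 2 of the 4 genes matched an entry of the promoter table.
Ccl3, chr11:83649379-83649628, minus strand: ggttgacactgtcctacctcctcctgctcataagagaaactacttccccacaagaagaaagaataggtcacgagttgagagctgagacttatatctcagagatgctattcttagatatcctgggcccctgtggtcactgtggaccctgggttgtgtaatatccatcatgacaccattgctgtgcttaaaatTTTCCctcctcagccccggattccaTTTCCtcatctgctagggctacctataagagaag
Xcl1, chr1:164935523-164935772, minus strand: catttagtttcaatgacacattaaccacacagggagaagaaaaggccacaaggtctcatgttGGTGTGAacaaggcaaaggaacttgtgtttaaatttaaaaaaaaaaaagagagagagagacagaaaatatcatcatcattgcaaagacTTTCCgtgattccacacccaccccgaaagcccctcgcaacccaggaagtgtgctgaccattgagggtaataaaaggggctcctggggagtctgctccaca

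GGAAA was found 2 times before Ccl3 and 1 time before Xcl1, and 55.7% of 32536 promoters of that length hold it. TCACACC was found 1 time before Xcl1, and 3.33% of promoters hold it. Neither stretch held TTCNNNGAA, the palindrome that STAT dimers bind (7.04% of promoters), or TGANTCA, the AP-1 site (6.73%). A match is a description of letters, and no binding was measured.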

How the data were processed

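Polyadenylated RNA of spleen cells selected as CD4+ or CD8+ was sequenced unstranded as 150 bp paired ends, per the labels' protocols. The submitters' processing notes name cutadapt 3.4, Trimmomatic 0.39, Salmon 1.5.2, edgeR 3.34.1 and GRCm38, without roles. The authors deposited estimated counts per gene, 1 table a cell type, and Salmon's estimated counts (reads) and TPM per transcript for each library. Gene names came from GENCODE mouse release 21.

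The test was edgeR's robust quasi-likelihood F test (edgeR 4.0.16, R 4.3.3; 2-sided, with labelled sex as covariate) on counts rounded to integers, after filterByExpr and TMM, with Benjamini-Hochberg adjustment over all genes tested and a threshold of 0.05. Each cell type had a fit of its own. Comparisons across cell types used reads summed per gene in 1 fit of the 21 libraries, since the tables were made separately. A fold change is L-gp130 over control, or CD8 over CD4 cells, and its SE is its size on the log2 scale divided by the root of F. CPM are TMM-scaled, and Poisson intervals cover counting error only. The fits were tested on simulated data. Alternatives included DESeq2 1.42.0, limma-voom (limma 3.58.1), RLE size factors, other filters, no sex term, a block by replicate number and each library left out in turn; leaving out sets of CD8 controls was chosen after seeing the data. Nothing in the labels says that libraries were prepared separately, so p-values measure the spread between these samples.

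Named genes are the 4 chemokine genes, up to 3 called genes a list with the smallest adjusted p, and the 3 most alike in level; other genes named for a count or a limit were chosen after their values were seen. The members and lists were chosen with earlier results of these data known. Some items the rule takes are not reported here.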

Additional observations from a re-analysis of the deposited data

Results flagged for a closer look

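In 3 of the 12 sets of 4 or more libraries tested (4 genes in 3 groups, the group of 3 libraries left out), 1 library lay far from the rest. Chance marks about 1 set in 20 where levels are normally spread. All 3 marks are L-gp130 CD4 replicate 1, on the CPM of reads summed per gene. Its Ccl3 level of 5.92 CPM left a gap to the next library of 0.701 of the group's range. Its Ccl4 level of 12.9 CPM left a gap of 0.788 and its Ccl5 level of 214 CPM a gap of 0.776. For Xcl1 it was the highest too, at 3.99 CPM, without passing that limit. The 3 marks are 1 library and not 3 separate events. The calls of Ccl3 and Ccl4 held without it, and that of Ccl5 appeared (log2 0.76, adjusted p 0.0120).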

How the results depend on the processing

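The higher levels of all 4 genes in CD8 than in CD4 cells kept their direction and passed the test in every alternative run, as did the rise of Ccl5 in CD8 cells apart from the replicate block. At an adjusted p under 0.01, 1272 genes were called in CD4 and 1249 in CD8 cells, and Ccl4 in CD4 cells was lost (2.58, adjusted p 0.0228). Ccl5 in CD4 cells passed without the sex term (1.25) and without L-gp130 CD4 replicate 1 and control CD4 replicate 5 together (0.72, adjusted p 0.0203). With sex taken from Xist and Ddx3y, no call of the chemokine genes in CD4 cells changed. Replicate numbers did not pair the libraries: deviations of same-numbered libraries had r of -0.21 to 0.17, and their sexes often differed. With a replicate block Ccl4 in CD4 cells gave 2.82 (adjusted p 0.0628), Ccl3 in CD8 cells -0.72 (0.00964), Ccl5 in CD8 cells 0.95 (0.0904) and the difference between cell types for Ccl3 -3.40 (0.0393), with 268 genes called for that difference. That difference passed for Ccl3 also in DESeq2 (-2.90; 954 genes called) and without the sex term (-3.20, adjusted p 0.0334), and 353 genes were called in joined gene tables, 888 without the 2 doubted CD4 libraries, 837 without control CD8 replicates 1 to 3 and 313 without control CD8 replicates 4 to 6. Without control replicates 1 to 3, Ccl4 in CD8 cells was 1.53 and Xcl1 0.62, and without control replicates 4 to 6 Ccl3 was -0.72 and its difference between cell types -3.49; that split fixes which way these values move. In the CD8 fit the L-gp130 libraries are replicates 1 to 3 only. With the replicate block, control CD8 replicates 4 to 6 therefore did not enter the genotype difference of that fit. Its block values for Ccl3 and Ccl5 repeat those without control replicates 4 to 6. The cause of the other shifts was not tested.

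Leaving out each library in turn gave log2 fold changes in CD4 cells of 2.03 to 2.65 for Ccl3, 1.81 to 3.31 for Ccl4, 0.57 to 1.24 for Ccl5 and -1.08 to -0.33 for Xcl1. In CD8 cells it gave -0.33 to 0.22 for Ccl3, 0.42 to 0.85 for Ccl4, 0.77 to 1.17 for Ccl5 and 0.09 to 0.31 for Xcl1. The difference between cell types for Ccl3 was -3.23 to -2.17 and passed without control CD8 replicate 5. Genes called numbered 1411 to 3642 in CD4 cells (1411 without L-gp130 replicate 6, 1529 without control replicate 1), 1374 to 2967 in CD8 cells (1374, 1865 and 1554 without L-gp130 replicates 1, 2 and 3) and 236 to 983 for the difference (983 and 362 without L-gp130 CD4 replicates 1 and 6, 236 and 329 without L-gp130 CD8 replicates 1 and 2). Without any 1 of the L-gp130 CD8 libraries, the steps of Ccl3 from L-gp130 CD4 (2.59 to 3.10) and of Ccl5 from control CD8 (0.76 to 1.14) had an exact permutation adjusted p of 0.0536, with fewer permutations to draw on. Depth limits Ccl3 and Ccl4 in control CD4 cells, at 5 to 25 reads a library.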
